A study of Mus musculus with 8 samples.

Results

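The endothelin genes were followed in both regions of the mouse retina, superior and inferior, with and without exposure to hyperoxia. The genes were the 3 ligand genes *Edn1*, *Edn2* and *Edn3*, the receptor genes *Ednra* and *Ednrb*, and the genes of 2 peptidases, *Ece1* and *Mme*. A gene was taken from a probe set to which the platform annotation gives that 1 symbol and no other, with the brightest to be used had there been several. This found 6 of the 7 genes, each with 1 probe set, among 28853 probe sets, of which 21789 had 1 symbol and stood for 19938 genes. *Ednra* was not analysed here. *Edn2* and *Mme* are among the genes known to stand out on these same arrays, *Edn2* between the regions in its response to hyperoxia and *Mme* between the regions of control retina. *Edn2* is therefore described with no p-value, and *Mme* is given one only between the regions of hyperoxia-exposed retina. Counts over the endothelin genes are read for *Edn1*, *Edn3*, *Ednrb* and *Ece1* alone.

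The 4 groups of retinal RNA had 2 arrays each, 8 in all, of the Affymetrix Mouse Gene 1.0 ST type. All mice were C57BL/6J, a strain whose photoreceptors are vulnerable to oxygen, raised and kept in dim cyclic light. Hyperoxia-exposed mice were 83 to 90 days old when they entered 75% oxygen, where they stayed for 14 days, and controls stayed in room air and were killed at the same age. Each sample pooled retinal tissue of 2 animals, 1 male and 1 female, and the superior and inferior retina were separate samples. The labels do not say how the animals of the replicates differed, nor whether superior and inferior samples of a number came from the same animals, so the p-values reflect no more than how these samples spread, and that spread may be technical. The small number of arrays limits the precision of every value. Values are log2 signal, and a probe set's signal was not set against that of another. FD is the ratio of inferior to superior signal, written as its negative inverse when it is below 1. FR is the ratio of hyperoxia-exposed to control signal in a region. FM is the FR of the inferior retina minus the FR of the superior retina.

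Endothelins are short peptides, best known for constricting blood vessels, that are cut from longer precursors first by furin-like convertases and then by endothelin-converting enzymes. They act on G protein-coupled receptors, of which the B receptor binds all 3 peptides. In the retina *Edn1* is known mainly from vessels, while *Edn2* is known as a gene that photoreceptors switch on when they are stressed or dying. *Ednrb* is found on Müller cells and astrocytes, the glial cells of the retina, and the signal from photoreceptors to Müller cells precedes the production of protective factors such as FGF2. Endothelins are broken down by neprilysin, the product of *Mme*, among other peptidases.

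The array medians lay between 6.98 and 7.05 on the log2 scale. The rod genes *Nrl*, *Gnat1*, *Pde6b*, *Sag*, *Rcvrn* and *Cnga1* had means from 10.5 to 14.2 over the 8 arrays, so the labelled tissue held its defining markers. The median deviation of 12 lens genes from their own means was 3.44 on control inferior replicate 2 and between -0.87 and -0.06 on the other 7 arrays. Values without that array are given beside those of *Mme* and the ranks of *Edn2*.

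The promoter of *Edn2* is shown because, of the endothelin genes, its signal differed most between the groups. It is the 250 bases before the start of the gene at chr4:120160956-120161205, plus strand, in RefSeq's GRCm38.p6, and the capitals mark the match to GCGTG described after it.
Edn2: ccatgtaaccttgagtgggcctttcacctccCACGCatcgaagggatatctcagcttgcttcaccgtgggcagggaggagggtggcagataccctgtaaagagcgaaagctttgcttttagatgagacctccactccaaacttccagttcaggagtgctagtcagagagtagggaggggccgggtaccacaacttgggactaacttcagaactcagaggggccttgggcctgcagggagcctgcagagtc
The letters ACGTG and GCGTG, the cores bound by hypoxia-inducible factors, TTCNNNGAA, bound by STAT proteins, and TGANTCA, bound by AP-1, were searched on both strands. *Edn2* held 1 GCGTG, on the minus strand and 219 bases before the start, and no match to the other 3. GCGTG was held by 28.2% of 32851 RefSeq promoter windows of the same length, ACGTG by 16.6%, TTCNNNGAA by 7.02% and TGANTCA by 6.75%. The windows of *Edn1* and *Edn3* held none of the 4, and that of *Ednrb* held 1 GCGTG, 99 bases before the start. *Ece1* had 4 windows, of which 3 held GCGTG and 1 of these also held ACGTG, and *Mme* had 3, with TTCNNNGAA in 1 and both GCGTG and TGANTCA in another. These are matches of letters, not sites.

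*Edn2*, the endothelin gene of stressed photoreceptors, was highest in the hyperoxia-exposed inferior retina and lowest in the control inferior retina. Its log2 signal was 6.91 and 6.95 in control inferior, 7.55 and 7.43 in control superior, 8.20 and 8.17 in hyperoxia superior, and 9.76 and 9.72 in hyperoxia inferior retina. The groups overlapped nowhere, and their order was control inferior, control superior, hyperoxia superior, hyperoxia inferior. The regions thus changed places, the inferior retina lying below the superior in control mice and above it after hyperoxia. These levels are a description, since they are those by which the gene was chosen.

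Across hyperoxia the log2 difference of *Edn2* was 2.81 (SE 0.09) in the inferior retina, an FR of 7.02, and by size it ranked 2 among 28853 probe sets. In the superior retina it was 0.70 (SE 0.09), an FR of 1.62 and rank 82. The 2 differences were themselves 2.11 apart (SE 0.12), with an FM of 5.40 and rank 3. The study reported that its qPCR found the same direction of change for *Edn2*, with a more marked FM. Between the regions the log2 difference, inferior minus superior, was -0.56 (SE 0.09) in control retina, an FD of -1.47 and rank 175. In hyperoxia-exposed retina it was 1.56 (SE 0.09), an FD of 2.94 and the largest in size of all probe sets. Without control inferior replicate 2, the array with the lens genes, the ranks were 1 for the inferior retina after hyperoxia, 2 for the difference between the changes and 333 between the control regions. In bulk tissue a change in the number of cells that make a transcript and a change in the amount per cell cannot be told apart.

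**Figure D1:**
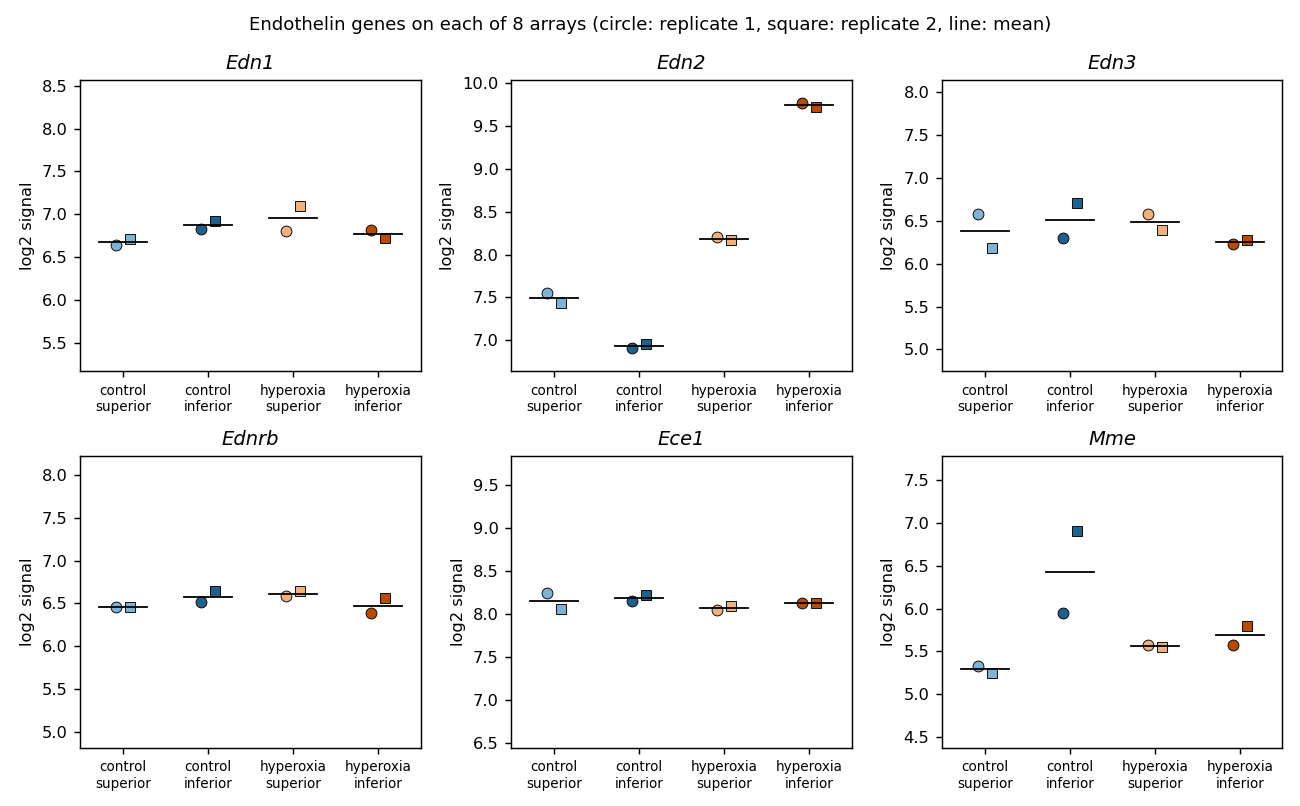
Log2 signal of the 6 endothelin genes on each of the 8 arrays, with a panel for each gene, a point for each array and a line at the mean of each of the 4 groups. The points of *Edn2* form 4 separate levels from 6.91 to 9.76, while *Mme* reaches 6.90 on 1 control inferior array.

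Markers of other cells moved with *Edn2* after hyperoxia. The median deviation of 8 microglia and macrophage genes from their own means was -0.39 and -0.51 in control superior, -0.32 and -0.39 in control inferior, 0.007 and 0.019 in hyperoxia superior, and 0.88 and 0.89 in hyperoxia inferior retina. By limma, 7 of these 8 genes were higher after hyperoxia in the inferior retina, where 0.492% of all probe sets were called. In the superior retina 0 were higher, where 0.0173% of all were called. Between the regions of hyperoxia-exposed retina 5 were higher in the inferior, where 0.139% of all were called. These 5, which are also among the 7, were chosen for study on these same samples, so neither count is independent evidence. The 6 rod genes had a median difference of -0.16 after hyperoxia in the inferior retina, and 0 of them passed the test. The part of these cells in the signal of *Edn2* was not tested. Of the lists for endothelium, pericytes and smooth muscle, pigment epithelium, choroid, ciliary body, lens and amacrine cells 0 genes passed the test in the 4 comparisons of groups or for the difference between the regions in the change. The 8 pigment epithelium genes nonetheless had a median difference after hyperoxia of 1.11 in superior and 0.54 in inferior retina, and the 12 lens genes of -1.85 in inferior retina, where a control array carried them. Of 8 Müller cell and astrocyte genes 1, *Glul*, the gene of glutamine synthetase, was lower after hyperoxia in the inferior retina, by a log2 difference of -0.70 (SE 0.11, adjusted p = 0.0416).

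**Figure D2:**
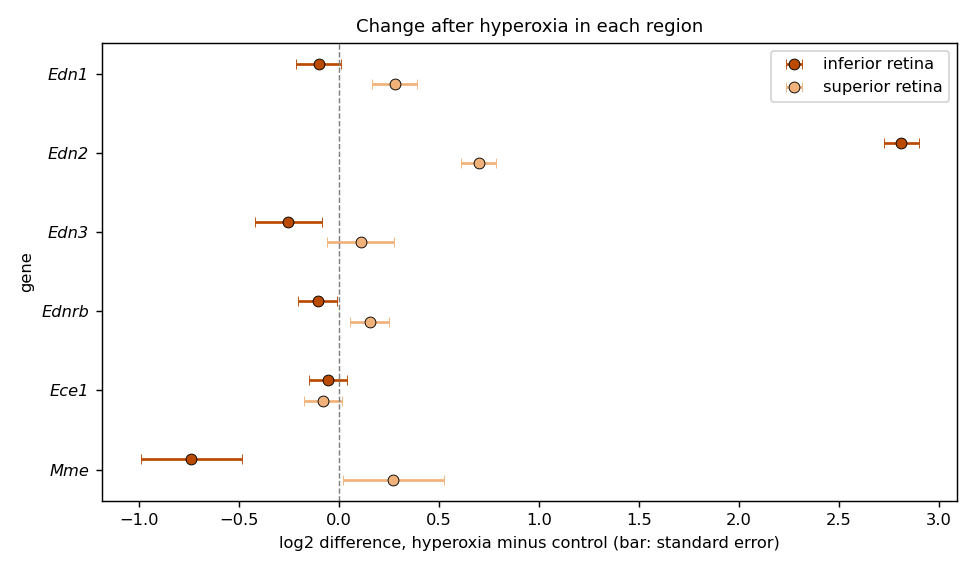
Log2 difference of hyperoxia against control for the 6 endothelin genes in the superior and inferior retina, with bars for the standard error of the fit. *Edn2* stands at 0.70 and 2.81, and the other genes lie between -0.74 and 0.28.

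*Edn1*, the vascular endothelin gene, had small differences, none of which passed the test. Its log2 signal was 6.64 and 6.71 in control superior, 6.83 and 6.92 in control inferior, 6.80 and 7.10 in hyperoxia superior, and 6.82 and 6.73 in hyperoxia inferior retina. Both hyperoxia arrays lay above both controls in the superior retina and below both in the inferior retina, and such opposite moves were found for 5.2% of all probe sets. The difference after hyperoxia was 0.28 in the superior retina (SE 0.11, 95% interval 0.02 to 0.54, limma adjusted p = 0.869). In the inferior retina it was -0.10 (SE 0.11, 95% interval -0.36 to 0.16, adjusted p = 0.83). The difference between the regions in this change was -0.38 (SE 0.16, 95% interval -0.75 to -0.01, adjusted p = 0.82). The intervals are not adjusted for the number of probe sets. The 9 vascular endothelial genes, which include *Pecam1* and *Cdh5*, gave 0 calls in any of these comparisons.

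*Edn3*, the ligand best known for its part with the B receptor in neural crest development, varied as much between replicates as between groups. Its log2 signal was 6.58 and 6.18 in control superior, 6.30 and 6.71 in control inferior, 6.58 and 6.40 in hyperoxia superior, and 6.23 and 6.28 in hyperoxia inferior retina. The superior groups overlapped, and both inferior arrays of hyperoxia lay below both inferior controls. The difference after hyperoxia in the inferior retina was -0.25 (SE 0.17, 95% interval -0.64 to 0.13, adjusted p = 0.694). In the superior retina it was 0.11 (adjusted p = 0.976).

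*Ednrb*, the gene of the B receptor, differed little between the groups. Its log2 signal was 6.46 on both control superior arrays, 6.51 and 6.65 in control inferior, 6.58 and 6.64 in hyperoxia superior, and 6.39 and 6.56 in hyperoxia inferior retina. The inferior arrays lay above the superior ones in control retina and below them after hyperoxia, and region differences that turned like this were found for 5.92% of all probe sets. The difference after hyperoxia was 0.15 in the superior retina (95% interval -0.07 to 0.37, adjusted p = 0.908) and -0.11 in the inferior retina (95% interval -0.33 to 0.11, adjusted p = 0.781). The difference between these changes was -0.26 (SE 0.14, 95% interval -0.57 to 0.05, adjusted p = 0.837).

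The B receptor is also made by melanocytes, and the median of a choroid, sclera and melanocyte list moved with *Ednrb* from array to array. The pigment genes of that list spanned more than its collagens. *Dct* ranged from 8.56 to 10.9 over the arrays and *Col1a1* from 7.35 to 7.57. The median deviation of 9 choroid, sclera and melanocyte genes was -0.25 and -0.11 in control superior, -0.09 and 0.19 in control inferior, 0.17 and 0.33 in hyperoxia superior, and -0.33 and 0.21 in hyperoxia inferior retina. Its Pearson r with *Ednrb* over the 8 arrays was 0.943. The melanosome gene *Pmel* was at 7.38 and 7.73 in control superior, 7.87 and 9.12 in control inferior, 8.46 and 9.16 in hyperoxia superior, and 6.92 and 8.45 in hyperoxia inferior retina. The part of such tissue in the signal of *Ednrb* was not tested.

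**Figure D3:**
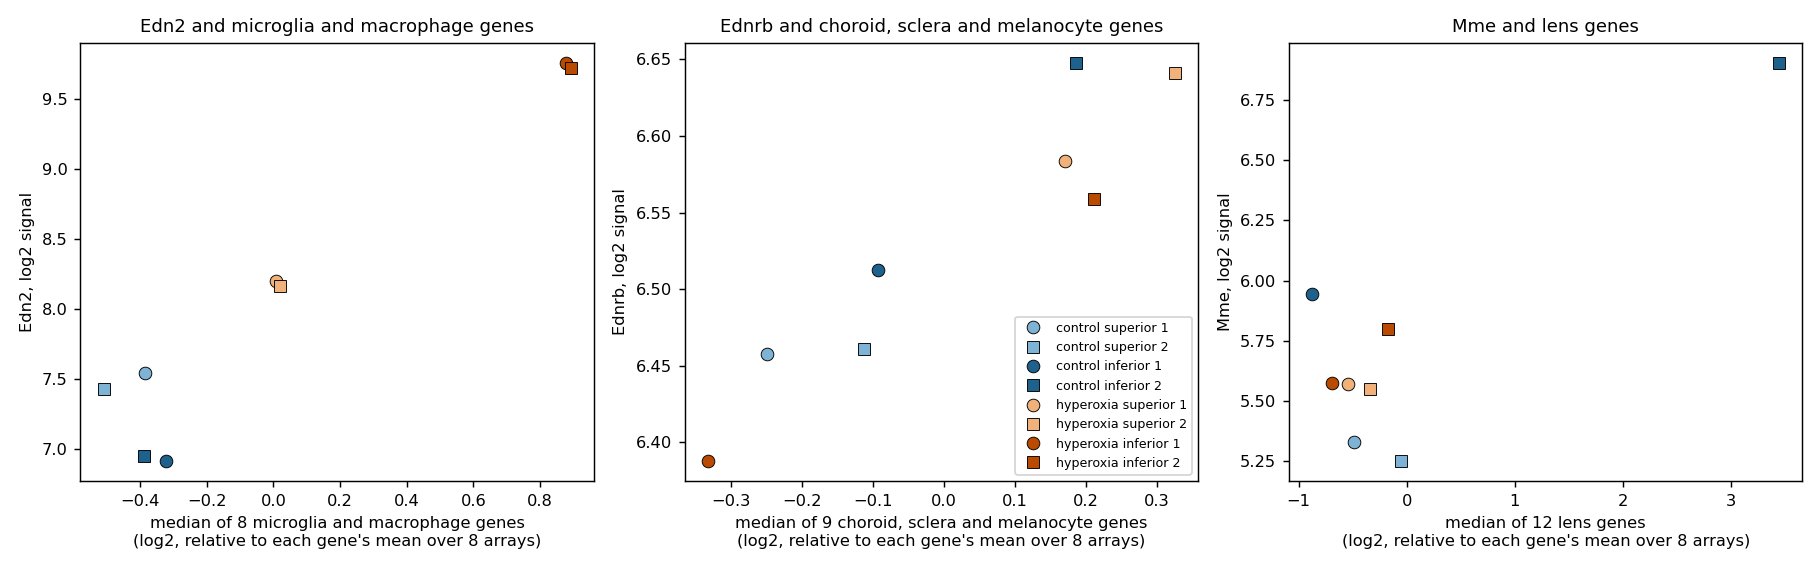
Log2 signal of *Edn2*, *Ednrb* and *Mme* on each of the 8 arrays against the median deviation of microglia and macrophage genes, of choroid, sclera and melanocyte genes and of lens genes. In the panel of *Mme* a single array, control inferior replicate 2, lies at 3.44 on the lens axis and 6.90 on the *Mme* axis.

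*Ece1*, the gene of the enzyme that frees active endothelin, was level across the groups. Its log2 signal was 8.24 and 8.05 in control superior, 8.15 and 8.22 in control inferior, 8.04 and 8.09 in hyperoxia superior, and 8.13 on both hyperoxia inferior arrays. The superior groups overlapped, while both hyperoxia inferior arrays lay just below both controls. The difference after hyperoxia was -0.06 in the inferior retina (SE 0.09, 95% interval -0.27 to 0.16, adjusted p = 0.895) and -0.08 in the superior retina (95% interval -0.30 to 0.13, adjusted p = 0.963).

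*Mme*, the gene of neprilysin, had a dim signal with a mean of 5.74 over the arrays. Its log2 signal was 5.33 and 5.25 in control superior, 5.95 and 6.90 in control inferior, 5.57 and 5.55 in hyperoxia superior, and 5.57 and 5.80 in hyperoxia inferior retina. Both control inferior arrays lay above the other 6, and the higher of them was the array with the lens genes. The difference between the regions of hyperoxia-exposed retina, inferior minus superior, was 0.12 (SE 0.25, 95% interval -0.45 to 0.70, adjusted p = 0.937). This SE is pooled over the 4 groups. Their SDs were 0.06 in control superior, 0.68 in control inferior, 0.01 in hyperoxia superior and 0.16 in hyperoxia inferior retina. The interval and p-value thus also depend on the control arrays by which the gene was chosen. In control retina the difference between the regions was 1.14 (SE 0.25), an FD of 2.20, given as a description since the gene was chosen by it.

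The size of the control difference of *Mme* rested on 1 array. It was 0.66 without control inferior replicate 2 and 1.61 without replicate 1. The difference after hyperoxia in the inferior retina was -0.74 with all arrays, -0.26 without replicate 2 and -1.22 without replicate 1. The Pearson r of *Mme* with the lens genes was 0.844 over 8 arrays and -0.515 over the 7 without replicate 2. Whether lens tissue had a part in the signal of *Mme* was not tested. The study reported that its qPCR also found *Mme* to differ between the control regions.

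*Edn1*, *Edn3*, *Ednrb* and *Ece1*, the 4 genes not chosen for their own differences on these arrays, gave 0 calls by limma in each comparison, and 0 under every alternative setting run. After hyperoxia in the inferior retina 0 of 4 were called, where 0.492% of all probe sets were, and 0 of 4 had an unadjusted p under 0.05, where 9.39% of all did. In the superior retina 0 of 4 were called, where 0.0173% of all were, and 1, *Edn1*, had an unadjusted p under 0.05, where 5.59% of all did. Between the regions of control retina 0 of 4 were called, as were 0% of all, and 0 of 4 had an unadjusted p under 0.05, where 5.3% of all did. Between those of hyperoxia-exposed retina 0 of 4 were called, where 0.139% of all were, and 0 of 4 had an unadjusted p under 0.05, where 8.5% of all did. For the difference between the regions in the change 0 of 4 were called, where 0.00347% of all were, and 1, again *Edn1*, had an unadjusted p under 0.05, where 6.04% of all did. Over both oxygen conditions together 0 of 4 differed between the regions, where 0.0173% of all were called.

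The arrays of the groups did not overlap for 3 of these 4 genes after hyperoxia in the inferior retina, where 38.7% of all probe sets did not. They did not overlap for 2 of 4 in the superior retina, against 35.9%. Between the regions the counts were 2 of 4 in control retina, against 34.2%, and 3 of 4 in hyperoxia-exposed retina, against 38.5%. The median size of the log2 difference of the 4 genes after hyperoxia was 0.10 in the inferior retina, against 0.10 over all probe sets, and 0.13 in the superior retina, against 0.08. Between the regions it was 0.12 in control retina, against 0.08, and 0.16 in hyperoxia-exposed retina, against 0.09. It was 0.31 for the difference between the regions in the change, against 0.12. Over both regions together the size after hyperoxia was 0.07, against 0.07, and over both oxygen conditions that between the regions was 0.03, against 0.07.

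Of 54 genes listed around the endothelin pathway 47 were measured, and the calls all fell in the list for the photoreceptor-to-Müller injury signal. That list also holds receptors, a feedback inhibitor and a filament of reactive glia, and signalling itself was not tested. Of the 8 genes of this list measured, 5 were higher after hyperoxia in the inferior retina, where 0.492% of all probe sets were called. The median of the 8 was 1.17, against 0.0054 over all. The 5 were chosen for study on these same samples, so their differences are given with no p-value. Their counts and calls, here and in the next paragraph, are not independent evidence. *Gfap*, the intermediate filament of reactive glia, rose by 2.42 (SE 0.12). *Fgf2*, a growth factor that protects photoreceptors, rose by 1.63, *Osmr*, the oncostatin M receptor, by 1.43, *Stat3*, which carries the cytokine signal to the nucleus, by 1.26 and *Socs3*, its feedback inhibitor, by 1.09. *Socs3* was not called without hyperoxia inferior replicate 2, and the other 4 were called whichever array was left out.

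In the superior retina 2 of the 8 were higher, *Gfap* by 1.25 and *Osmr* by 0.93, where 0.0173% of all probe sets were called. These calls did not last when any 1 array was left out. Between the regions of hyperoxia-exposed retina *Fgf2* was higher in the inferior by 0.99, *Gfap* by 0.93, *Socs3* by 0.90 and *Stat3* by 0.74. These were 4 of the 8, where 0.139% of all probe sets were called. That count was 0 to 2 when an array was left out, being 0 without hyperoxia superior replicate 2 or either hyperoxia inferior array and 1 or 2 without any other. In control retina, and for the difference between the regions in the change, 0 of the 47 genes passed. Of the other genes of this list, *Lif*, the cytokine that photoreceptor injury induces in Müller cells, had a difference of 0.45 in the inferior retina (adjusted p = 0.493) and *Il6st*, its signalling receptor chain, of 0.56 (adjusted p = 0.0867). *Il6st* was called there with dim probe sets left out and with a variance trend.

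**Figure D4:**
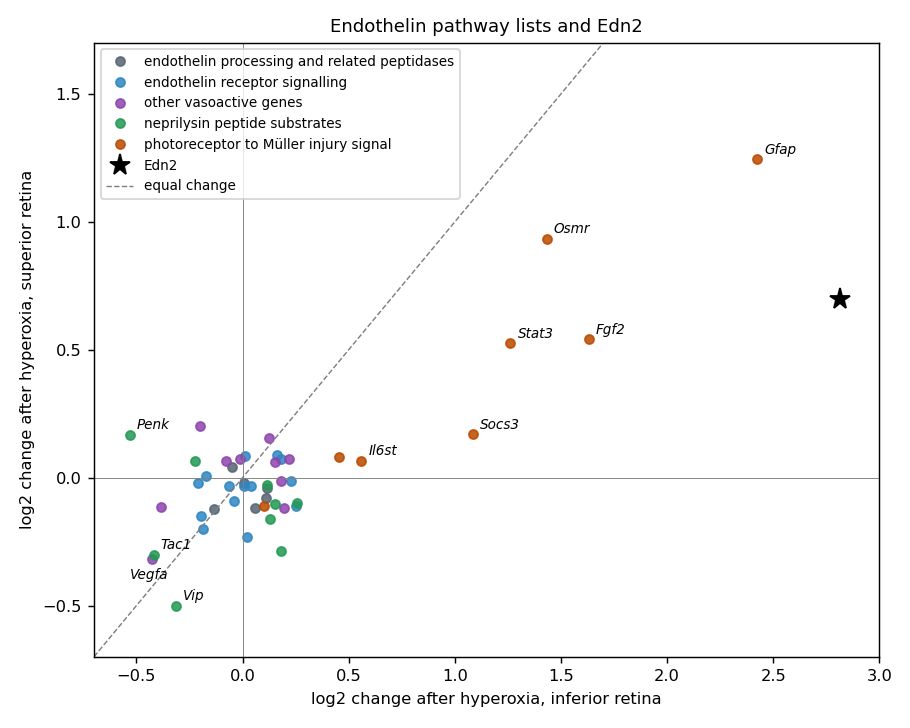
Log2 difference of hyperoxia against control in the inferior retina against that in the superior retina for the 47 measured genes of the pathway lists, a point each with a colour for each list, and for *Edn2*, drawn as a star. The broken line marks equal change. *Gfap*, *Fgf2*, *Osmr*, *Stat3* and *Socs3* lie above 1 on the inferior axis with *Edn2*, and the other lists lie between -0.53 and 0.26 there.

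The remaining lists gave 0 calls in the 4 comparisons of groups and for the difference between the regions in the change. The 6 processing enzymes and related peptidases had a median of 0.03 in the inferior retina, and their largest differences there were -0.14 for *Ece2*, a second converting enzyme, and 0.12 for *Furin*, the convertase that makes the first cut. The 14 measured genes of receptor signalling had a median of 0.01 there, with 0.25 for *Plcb4* and 0.23 for *Plcb3*, phospholipases that act below Gq-coupled receptors. Of the 10 other vasoactive genes measured, *Vegfa*, an oxygen-regulated angiogenic factor, had a difference of -0.43 in the inferior retina (adjusted p = 0.154) and -0.32 in the superior retina (adjusted p = 0.789), and *Adm*, the vasodilator adrenomedullin, -0.39 in the inferior retina (adjusted p = 0.498). *Vegfa* was called in the inferior retina with a variance trend.

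Neprilysin also degrades neuropeptides, and the 9 substrate genes measured had a median of 0.11 in the inferior retina. *Penk*, the enkephalin precursor, had a difference of -0.53 there (adjusted p = 0.181) and *Tac1*, the substance P precursor, of -0.42 (adjusted p = 0.163). The gene with the largest differences between regions was *Sst*, the somatostatin precursor, which had 7.40 and 7.36 in control superior, 8.08 and 8.15 in control inferior, 7.24 and 7.20 in hyperoxia superior, and 7.99 and 8.50 in hyperoxia inferior retina. All 4 inferior arrays lay above all 4 superior arrays. The difference was 1.03 in hyperoxia-exposed retina (SE 0.15, adjusted p = 0.0603) and 0.74 in control retina, where *Sst* too had been chosen on these samples. As for *Mme*, the SE and p-value draw on all 4 groups, and so on the control arrays by which *Sst* was chosen. In hyperoxia-exposed retina *Sst* was called when probe sets with a mean under 6 were left out and with 1-symbol probe sets only. It was also called with median centring and with a variance trend. It was not called with quantile normalization, a robust prior, a replicate block or a gene's probe sets averaged. Nor was it called with only the arrays of the comparison or by the methods' t-test. The study reported that its qPCR also found *Sst* to differ between the control regions.

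The genes whose signal followed that of *Edn2* most closely over the 8 arrays, among 4301 genes with a range of at least 0.5, were *Slc25a37* (Pearson r = 0.991), *Fgf2* (0.988), *Antxr2* (0.987), *Sulf1* (0.985) and *Lcn2* (0.984). All of them were chosen for study on these samples. *Fgf2* was at 7.95 to 8.14 on the control arrays, 8.64 and 8.67 in hyperoxia superior, and 9.72 and 9.57 in hyperoxia inferior retina, so it kept the order of *Edn2* after hyperoxia.

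The genes most like *Mme* were *Abi3bp* (r = 0.981), *Atp1b3* (0.974), *Adamts18* (0.967), *Arsi* (0.962) and *Slc7a2* (0.960). Without control inferior replicate 2 these values were 0.927, 0.906, 0.816, 0.785 and 0.760, in the same order. *Abi3bp*, like *Mme*, had been chosen on these samples for its difference between the control regions. Those most like *Ednrb* were *Pmel* (0.989), *Gja1*, the gap junction gene of astrocytes and other cells (0.976), and *Slc38a11* (0.963). For *Edn1* they were *Gemin6* (0.912), *Cirbp* (0.896) and *Gfod2* (0.866), for *Edn3* *Mir142* (0.932), *Sox1ot* (0.921) and *Olfr857* (0.908), and for *Ece1* *Birc5* (0.904), *Gm9733* (0.903) and *Hivep2* (0.895). The arrays share groups and tissue content, so these values describe likeness over 8 arrays and carry no test.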

How the data were processed

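Each deposited value is a log2 signal that the authors obtained in Partek, where RMA corrected the background and median polish summarised the probes of a set, per the labels and the study's methods. The sources used here give no versions. Nothing more was done to normalize these values. Of 28853 probe sets, 1621 have several symbols and 5443 have none listed in the platform annotation, and none of these was named.

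All 8 arrays entered a single model with a mean for each of the 4 groups (limma 3.58.1, R 4.3.3), whose residual degrees of freedom were 4 and prior degrees of freedom 4.47. Adjusted p-values are from limma's empirical Bayes test, two-sided, with Benjamini-Hochberg adjustment over all probe sets and a threshold of 0.05. The test was checked on simulated data. FD, FR and FM were computed from the differences between group means of the log2 values.

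The members, lists and tests were chosen with earlier results of these data known. All members are named; of each pathway list, the genes past the test and up to 2 others with the largest difference, of which the text gives part; and the 5 genes most like *Edn2* and *Mme* and the 3 most like each other member. *Pmel* was also given by array after its values were seen. Marker lists covered rods, Müller cells and astrocytes, vascular endothelium, pericytes and smooth muscle, retinal pigment epithelium, choroid, sclera and melanocytes, lens, ciliary body and iris, microglia and macrophages, and amacrine cells. Promoter windows are RefSeq's.

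Alternatives were other normalizations, filters, variance models and sets of arrays, the methods' t-test, and leaving out each array. Likeness and the ranks of *Edn2* without the array with the lens genes were added after seeing the data.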

Additional observations from a re-analysis of the deposited data

Results flagged for a closer look

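Several of the endothelin genes moved in opposite directions in the 2 regions or the 2 oxygen conditions, with no overlap between the arrays on either side. After hyperoxia *Edn1* was higher in the superior and lower in the inferior retina, with a difference between the changes of -0.38, and *Mme* did the same, with -1.01. Among all probe sets 5.2% moved the regions apart in this way. The inferior retina was below the superior in control mice and above it after hyperoxia for *Edn2*, with a difference of 2.11, and the reverse for *Ednrb*, with -0.26. Among all probe sets 5.92% had region differences of opposite direction. The opposition of the arrays was not tested in itself. Limma's test of the difference between the changes gave an adjusted p of 0.82 for *Edn1* and 0.837 for *Ednrb*, and no p is given for *Edn2* and *Mme*, which were chosen on these arrays. The value for *Mme* was -0.53 without control inferior replicate 2, the array with the lens genes, and -1.49 without replicate 1.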

How the results depend on the processing

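The number of the 6 endothelin genes called moved as follows, through *Edn2* and *Mme* alone, and nothing is read from it, since both were chosen on these arrays. With all arrays it was 1, *Edn2*, after hyperoxia in the inferior retina, between the regions of hyperoxia-exposed retina and for the difference between the regions in the change, and 0 in the other comparisons of groups. In the superior retina after hyperoxia, and between the regions over both oxygen conditions, it was 1, not 0, with dim probe sets left out (of 5 genes, without *Mme*), with 1-symbol probe sets only and with a variance trend. By the methods' t-test after Benjamini-Hochberg adjustment it was 0, not 1, between the regions of hyperoxia-exposed retina and for the difference between the regions in the change. With an array left out it was 1 to 2 after hyperoxia in the inferior retina, 0 to 1 between the regions of control retina, 0 to 1 between those of hyperoxia-exposed retina, 1 to 2 for the difference in the change and 0 to 1 between the regions over both conditions. Each higher count was reached without control inferior replicate 1, through *Mme*, except in hyperoxia-exposed retina, where the 0 came without hyperoxia superior replicate 2. Without control inferior replicate 1, when the array with the lens genes stands alone, calls over all probe sets went from 0 to 53 between the control regions, from 1 to 30 for the difference in the change and from 5 to 59 between the regions over both conditions. Without hyperoxia superior replicate 2 those between the regions of hyperoxia-exposed retina went from 40 to 0.

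Of the 47 pathway genes, the methods' t-test called 0 after hyperoxia in the inferior retina, 0 in the superior retina and 0 between the regions of hyperoxia-exposed retina. With only the arrays of the comparison the last 2 counts were 0 and 1. With a variance trend the difference in the change gave 1, *Fgf2*. With an array left out the count was 0 in the superior retina in every case and 0 to 2 between the regions of hyperoxia-exposed retina.

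Deviations from the group means correlated between -0.02 and 0.14 over pairs of groups, which cannot show whether replicate numbers pair samples. Each sample's highest correlation was with its own number, but with 2 arrays per group the correlation with the other number is only its negative. With the replicate block the pathway counts were 0 in the superior retina, against 2, and 1 between the regions of hyperoxia-exposed retina, against 4, and it changed no count of the endothelin genes.

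Of the members' own differences, 288 values under other settings kept direction, most of them unchanged, and 1 turned, that of *Ece1* between control regions, at -0.0048 with quantile normalization. With an array left out, 220 stayed, 12 moved and 8 turned. The turned ones ranged from -0.0933 to 0.31 for *Edn3* in the superior retina after hyperoxia, -0.077 to 0.327 for *Edn3* between control regions, -0.174 to 0.0138 for *Ece1* in the superior retina, -0.0572 to 0.131 for *Ece1* between control regions and -0.0693 to 0.119 for *Ece1* in the difference in the change. The causes were not tested. *Mme*, under the limit for dim probe sets, has no value with these left out, and fits on the arrays of a comparison give none for the difference in the change or the means over conditions.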
